A study of Mus musculus with 16 samples.

Results

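The MHC class II pathway genes examined here are Ciita, Cd74, H2-Aa, H2-Ab1, H2-Eb1, H2-DMa, H2-DMb1, H2-DMb2, H2-Oa and H2-Ob. They were taken by gene symbol from the deposited table, in which all 10 were found among 23356 genes. RNA was sequenced from bone marrow-derived dendritic cells (BMDCs), which were grown for 6 days with GM-CSF and IL-4 at 10 ng/ml each from mice of 4 genotypes, all on the C57BL/6 background per the labels: WT, Tmem173-/- (lacking STING, the sensor of cyclic dinucleotides), Irf1-/- and Irf3/7-/- (lacking interferon regulatory factors). Cells of each genotype received no treatment (NT) or the bacterial second messenger c-di-GMP (CDG) for 18 h, at 25 μg/ml per the labels (a legend of the study gives a higher dose). The study's methods describe its animals as sex-matched young adults. GM-CSF and IL-4 were present in all cultures. The series holds 16 samples, 2 per condition in 8 conditions. The authors merged each pair into 1 FPKM value (fragments counted per kilobase of transcript, relative to all mapped fragments) with a lower and an upper bound, so replicate spread could not be seen and nothing was tested over replicates.

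MHC class II molecules are pairs of an alpha and a beta chain that carry peptides from the endocytic route to the cell surface, where CD4 T cells read them. The invariant chain, encoded by Cd74, holds new class II molecules in shape and guides them to endosomes. There, H2-DM exchanges the remnant of the invariant chain for peptide, and H2-DO holds H2-DM back. CIITA, the class II transactivator, binds no DNA itself and is recruited by factors (RFX, CREB and NF-Y) that sit on the X and Y boxes of class II promoters, and its own transcription is induced by IFN-γ, in part through IRF1, in many cells. Mature dendritic cells are known to shut down Ciita transcription while class II protein stays stable on their surface. Mice of the C57BL/6 haplotype carry a broken gene for the alpha chain that would pair with H2-Eb1, here listed as H2-Ea-ps, at 0.0953 FPKM or less in every condition.

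The promoter stretches below are shown because CIITA is recruited to class II promoters at the X and Y boxes, which were not both found in every window. They are read in each gene's own direction, 5′ to 3′, from RefSeq on GRCm38.p6, and each spans 61 bases around the first Y box of a window that reached from 250 bases before the transcription start to 50 after it. Capitals mark the X core (AACNNATG), the cyclic AMP response element (TGACGTCA) and the Y box (GATTGG), which did not overlap each other here. Of the 10 genes, 7 had a window, and Ciita, Cd74 and H2-Ab1 had none.
H2-Eb1, chr17:34305762-34305822, plus strand: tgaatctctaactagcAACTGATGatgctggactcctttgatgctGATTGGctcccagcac
H2-DMb1, chr17:34153084-34153144, plus strand: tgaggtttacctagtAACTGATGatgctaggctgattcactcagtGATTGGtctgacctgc
H2-DMb2, chr17:34145113-34145173, plus strand: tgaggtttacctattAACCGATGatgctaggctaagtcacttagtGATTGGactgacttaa
H2-Ob, chr17:34238802-34238862, plus strand: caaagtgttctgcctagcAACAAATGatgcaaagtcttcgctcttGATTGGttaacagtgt
H2-Aa, chr17:34287857-34287917, minus strand: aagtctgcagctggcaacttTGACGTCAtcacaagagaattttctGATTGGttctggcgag
H2-Oa, chr17:34092290-34092350, plus strand: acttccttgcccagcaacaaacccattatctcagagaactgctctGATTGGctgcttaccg
An X core 20 to 40 bases before a Y box on the same strand was found in H2-Eb1, H2-DMb1, H2-DMb2 and H2-Ob, with 29, 30, 30 and 27 bases between their first bases, while 26 of all 32851 promoters of this length (0.0791%) held such a pair. Searched on both strands, the X core was in 8.86%, the Y box in 16.1% and the cyclic AMP response element in 1.79% of all promoters. H2-Aa had the response element and a Y box, and the window of H2-Oa had a Y box without an X core. H2-DMa, whose stretch is not shown, had a Y box at 199 bases before 1 of its 2 annotated starts and no X core. The core of the interferon-stimulated response element (2 GAAA blocks with any 2 bases between them, in 3.44% of promoters) was in none of these windows, and the GAS element (TTCNNNGAA, 8.30%) was in H2-DMb2 alone. A match of letters is a description of the window and not a measured binding site.

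In the build of these loci, Ciita lies at chr16:10480072-10527564 of GRCm38. The class II genes other than Cd74 lie together on chromosome 17, between H2-Oa at its start (34083843 in the table) and H2-Eb1 at its end (34316674). Libraries were stranded, and the study's methods describe a second quantification, in Seqmonk, as set for opposing-strand libraries. For the Cuffdiff values used here no strand setting is stated, so genes that overlap on opposite strands could exchange reads. This touches H2-Oa, which shares 321 exonic bases with BC051537 (0.339 FPKM or less in every condition), H2-DMa, which shares 360 with Brd2 (65.1 to 127 FPKM), and Ciita, which shares 329 with Dexi (8.19 to 22.9 FPKM). H2-DMb1 and H2-DMb2 are near copies: 29.2% of the 35-base windows of H2-DMb1 recur exactly in H2-DMb2, so the split of reads between them is uncertain. For the other genes, fewer than 1% of the windows recurred in another gene. Of the neighbours in this region, H2-Eb2 stood at 1.62 FPKM or less and Btnl2 at 0.235 or less in every condition.

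The targeted genes were looked at first. Tmem173 stood at 8.97 FPKM (NT) and 7.49 FPKM (CDG) in Tmem173-/- against 103 and 118 in WT BMDCs. Irf1 stood at 25.9 and 116 FPKM in Irf1-/- against 149 and 245 in WT, so transcript of the gene was still counted and was induced. Irf7 stood at 1.07 and 4.97 FPKM in the cells labelled Irf3/7-/- against 15.2 and 687 in WT, but Irf3 stood at 7.74 FPKM untreated and at 20.2 FPKM after c-di-GMP, where WT had 19.9 and 15.8. The treated condition labelled Irf3/7-/- is thus checked by Irf7 and not by Irf3, and the label is used below in that sense. Of 7 dendritic cell markers, at least 6 reached 1 FPKM in every condition, led by Itgax and Ccr7, and their sum ran from 523 to 1626 FPKM. Markers of other cells were also present and differed between genotypes. The 6 T and NK cell markers summed to 386 (NT) and 353 (CDG) FPKM in WT, to 367 and 983 in Irf3/7-/-, to 8.28 and 10.5 in Irf1-/-, and to 0.436 and 0.413 in Tmem173-/- cells. Outside Tmem173-/- most of this was Gzma. The 5 neutrophil markers found in the table summed to 13776 to 19086 FPKM in Tmem173-/- and to 1361 to 3906 in the others. Sums of the macrophage markers ran from 175 to 564 FPKM, highest in Tmem173-/-, and those of plasmacytoid dendritic cells from 5.08 to 13.1. In such bulk RNA, fewer cells of a type and less RNA per cell cannot be told apart, and the part of these cells in the results below was not tested. A change was called when it exceeded 2-fold, which is 1 on the scale of log2(FPKM + 0.1), when the authors' intervals were apart, and when a condition reached 1 FPKM with an OK status in both.

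The levels spanned more than 3 orders of magnitude, and in untreated WT BMDCs the chains stood above the peptide-loading genes. In untreated Irf1-/- cells H2-DMa (149 FPKM) stood above H2-Eb1 (121 FPKM), with overlapping intervals. In untreated WT BMDCs, Cd74 stood at 4278 FPKM (interval 3001 to 5535) and was the 8th highest of 10769 genes with at least 1 FPKM. H2-Aa (1031 FPKM) ranked 85th, H2-Ab1 (650.1 FPKM) 133rd and H2-Eb1 (454 FPKM) 191st. The peptide-loading genes followed with H2-DMa at 170.2, H2-DMb1 at 108, H2-DMb2 at 49.1, H2-Oa at 24.4 and H2-Ob at 2.28 FPKM, and Ciita itself stood at 25.8 FPKM. Among neighbours in this order, the intervals overlapped for H2-Aa and H2-Ab1, for H2-Ab1 and H2-Eb1, for H2-DMa and H2-DMb1 and for Ciita and H2-Oa, and were apart for the rest. Over the 8 conditions, Cd74 had the narrowest range of the 10 genes (1.49-fold from lowest to highest) and H2-Ob the widest (13.2-fold).

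**Figure D1:**
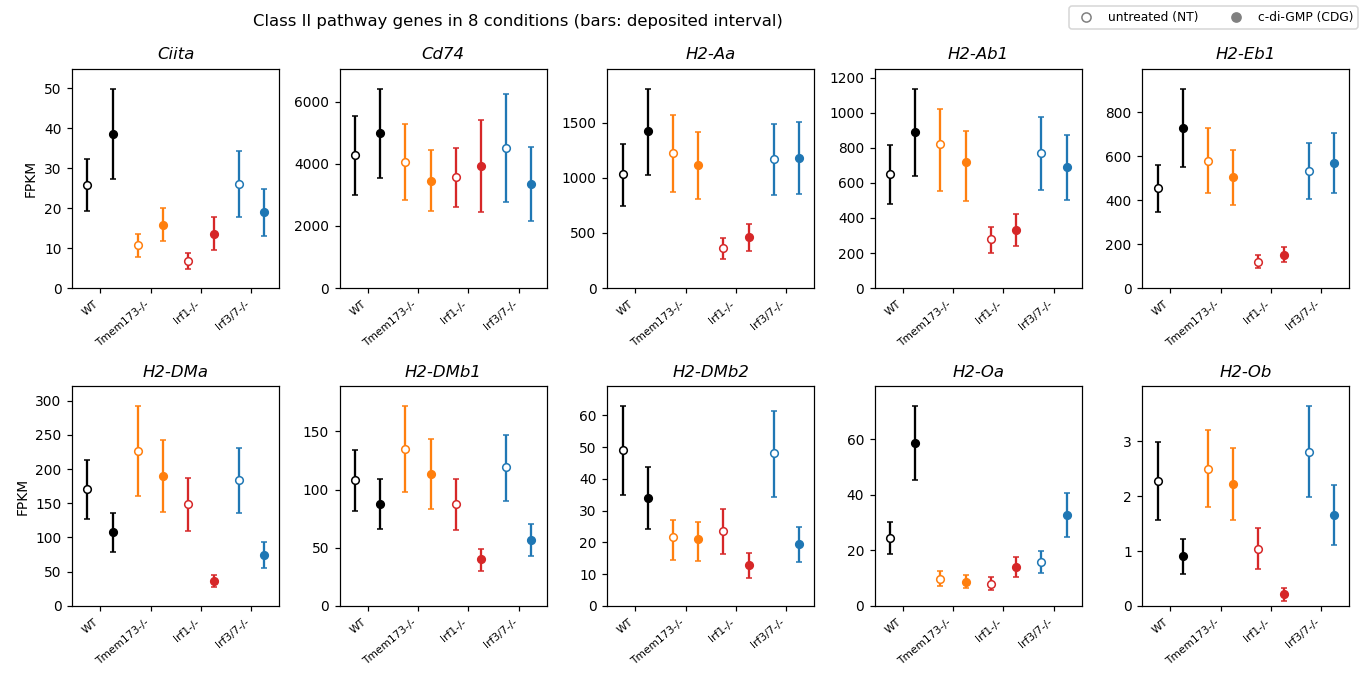
FPKM (y axis, from 0, a scale per gene) of the 10 genes in 8 conditions, grouped by genotype on the x axis, with open circles for untreated and filled circles for c-di-GMP-treated BMDCs. Bars are the intervals that the authors deposited. The 3 chain genes H2-Aa, H2-Ab1 and H2-Eb1 are lowest in both Irf1-/- conditions, Cd74 differs least, and H2-Oa is highest in treated WT cells.

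To ask whether class II expression differed without IRF1, Irf1-/- and WT BMDCs were compared within each treatment. Before any stimulus, 7 of the 10 genes were lower in Irf1-/- cells and none was higher, where 3.52% of all 11017 genes tested were called lower. After c-di-GMP, 8 of the 9 genes that reached 1 FPKM were lower, where 4.91% of 11079 genes were. The median log2 difference over the members was -1.14 untreated and -1.49 treated, beside -0.00213 and 0.0200 over all genes tested. Both comparisons rest on a single combined value per condition, and at a threshold of 4-fold 0 and 2 genes were called.

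The transactivator and the 3 chain genes other than Cd74 were lower in both states. Ciita stood at 25.8 FPKM in untreated WT (interval 19.4 to 32.3) and at 6.75 (4.71 to 8.83) in untreated Irf1-/- BMDCs, 3.79-fold lower. After c-di-GMP it stood at 38.5 (27.3 to 49.9) in WT and 13.6 (9.63 to 17.8) in Irf1-/- BMDCs, 2.81-fold lower, and the intervals were apart in both comparisons. H2-Aa, the alpha chain of the I-A molecule, stood at 364 FPKM (264 to 456) in untreated Irf1-/- cells against 1031 (745 to 1310) in WT. Treated, it stood at 462 (335 to 583) against 1424 (1027 to 1810), a log2 difference of -1.62. H2-Ab1, its beta partner, stood at 278 and 331 FPKM in the Irf1-/- conditions and at 650.1 and 890.2 FPKM in WT. H2-Eb1, the beta chain without a partner in this strain, differed most of the 3, with 121 FPKM (92.2 to 149) untreated and 152 (117 to 188) treated in Irf1-/- cells against 454 (347 to 561) and 729 (550.4 to 908) in WT, log2 differences of -1.91 and -2.26. All 3 chain genes were lower in Irf1-/- conditions than in any of the other 6 conditions, with no overlap of intervals.

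Cd74 did not follow the chains it accompanies. It stood at 3565 FPKM (2606 to 4523) untreated and 3918 (2458 to 5400) treated in Irf1-/- BMDCs, against 4278 and 4983 in WT, log2 differences of -0.26 and -0.35 with overlapping intervals. The ratio of Cd74 to H2-Aa, which is a ratio of values per length, was therefore 9.79 (interval 6.72 to 14.3) in untreated Irf1-/- cells and 4.15 (2.77 to 6.21) in untreated WT cells. Over all 8 conditions this ratio was between 2.82 and 4.15 outside Irf1-/- and 8.48 or above in both Irf1-/- conditions. The interval in treated Irf1-/- cells (5.35 to 13.4) was apart from that in treated WT (2.35 to 5.22). It overlapped those in untreated WT and untreated Irf3/7-/- cells (2.40 to 6.19). The ratio of H2-Eb1 to H2-Ab1 likewise was 0.434 and 0.460 in Irf1-/- and between 0.690 and 0.826 in the other conditions, though the intervals of some of these ratios overlapped.

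**Figure D2:**
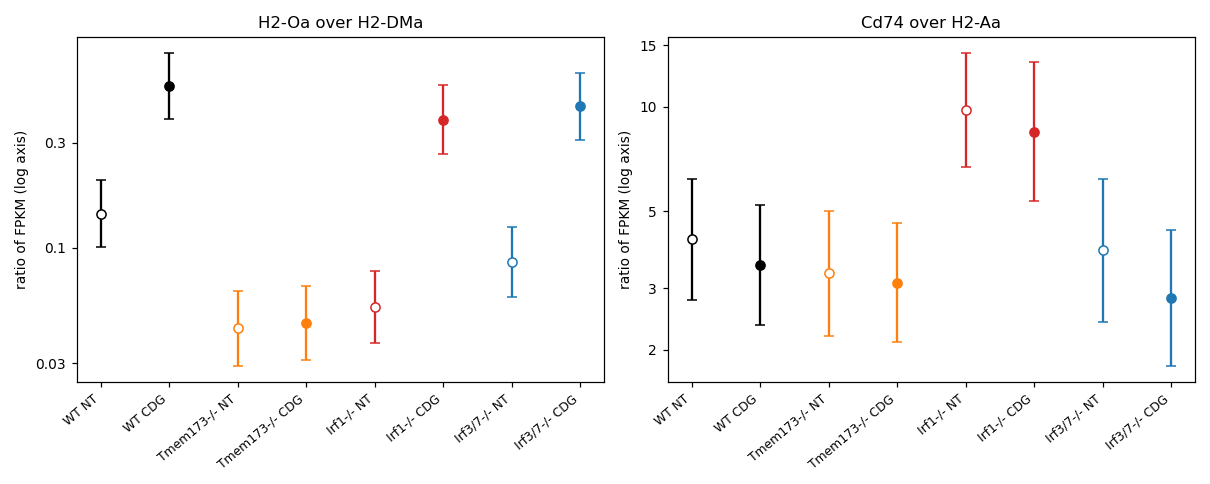
Ratio of FPKM (log axis) of H2-Oa to H2-DMa (left) and of Cd74 to H2-Aa (right) in the 8 conditions on the x axis, with bars for the interval propagated from the deposited bounds. The left ratio is higher after c-di-GMP in every genotype but Tmem173-/-, and the right ratio is highest in both Irf1-/- conditions.

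Among the peptide-loading genes, the difference between Irf1-/- and WT varied with the treatment for H2-DMa and H2-DMb1. H2-DMa, the alpha chain of the peptide exchanger, stood at 149 FPKM (109 to 187) in untreated Irf1-/- cells, close to the 170.2 (127 to 213) of WT, but fell to 36.5 (27.0 to 45.6) after c-di-GMP, where treated WT cells had 108 (79.5 to 136). H2-DMb1, its beta chain, stood at 87.2 FPKM untreated and 39.9 (30.3 to 49.3) treated in Irf1-/-, against 108 and 87.8 (66.2 to 109) in WT. So neither was called in untreated cells (log2 differences of -0.19 and -0.31) and both were called in treated cells (-1.57 and -1.13). H2-DMb2, the near copy of H2-DMb1, was lower in Irf1-/- cells in both states, at 23.6 against 49.1 FPKM untreated and at 12.9 against 34.1 treated. H2-Oa, the alpha chain of the H2-DM inhibitor, was lower too, at 8.04 against 24.4 FPKM untreated and at 13.9 (10.3 to 17.5) against 58.6 (45.4 to 71.8) treated, a log2 difference of -2.07. H2-Ob, the beta chain of the inhibitor, was at 1.04 against 2.28 FPKM untreated, which passed, and at 0.213 against 0.904 treated, which was not tested because both lay under 1 FPKM. Its values are so low that adding 1 FPKM in place of 0.1 shrank the untreated log2 difference from -1.06 to -0.68 and ended the call.

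IFN-γ is the classical inducer of Ciita, and its own transcript differed widely between conditions. Ifng stood at 34.6 (NT) and 299 (CDG) FPKM in WT, at 1.26 and 25.5 in Irf1-/-, at 44.0 and 1155 in Irf3/7-/-, and was listed at 0 in both Tmem173-/- conditions. Of its receptor and kinase genes (Ifngr1, Ifngr2, Jak1 and Jak2), none was called between Irf1-/- and WT cells in either state. The T and NK cell markers given above were likewise near 0 in Tmem173-/-, low in Irf1-/- and highest in treated Irf3/7-/- cells, and their part in the level of Ciita was not tested. Of the 7 macrophage markers, 4 were lower in untreated Irf1-/- than in WT cells (sums of 192 and 233 FPKM) and 3 in treated cells (175 and 295 FPKM). Untreated Irf1-/- cells were also higher than WT in the neutrophil gene Mpo (24.7 against 3.70 FPKM) and lower in Camp (7.10 against 18.8). They were higher in Cd209a of the dendritic cell (1.30 against 0.182 FPKM) and Cd79a of the B cell markers (1.42 against 0.570). After c-di-GMP, Mpo (12.6 against 2.90 FPKM) was higher and Camp (3.96 against 37.0) lower in Irf1-/- cells. The part of these markers in the class II differences was not tested either. Both Ifng and Ciita were lower in Irf1-/- than in WT cells. In Irf3/7-/- cells Ciita went from 26.1 to 18.9 FPKM, and Ifng rose to its highest level. In treated Tmem173-/- cells Ciita stood at 15.8 FPKM, Ifng was listed at 0 and the chains were near WT. The part of Ifng in the level of Ciita was not tested.

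The response to c-di-GMP was compared within each genotype. In WT BMDCs the chains, Cd74 and Ciita were changed by less than 2-fold: Ciita went from 25.8 to 38.5 FPKM, H2-Aa from 1031 to 1424, H2-Ab1 from 650.1 to 890.2, H2-Eb1 from 454 to 729 and Cd74 from 4278 to 4983, with overlapping intervals for each. Of the 10 genes, H2-Oa was called higher (10.5% of all genes were) and H2-Ob lower (9.96% were), so the class II genes were not called more often than genes at large. H2-Oa rose from 24.4 (18.6 to 30.1) to 58.6 FPKM (45.4 to 71.8), 2.40-fold. H2-Ob, the partner of its product, went the other way, from 2.28 (1.56 to 2.99) to 0.904 FPKM (0.581 to 1.22), on the log2 scale -1.25, which shrank to -0.79 and was no longer called with 1 FPKM added. B cells are a known source of H2-Ob, and the 6 B cell markers summed to 4.23 FPKM untreated and 3.41 treated in WT, with Pax5 at 0.0647 and 0 FPKM. Cd79b made up most of both sums (3.14 and 3.07 FPKM), while Cd79a went from 0.570 to 0.123 and Ms4a1 from 0.183 to 0.0102 FPKM, with intervals apart but below the 1 FPKM needed for a test. Markers of other cells were also called in WT. Ccr7 (265 to 1257 FPKM), Fcgr1 (18.3 to 40.6) and Mertk (4.89 to 16.9) were higher. C1qa (12.2 to 3.14 FPKM), C1qb (52.4 to 19.7), S100a8 (2531 to 1105), S100a9 (1350 to 643) and Klrb1c (1.35 to 0.151) were lower. The part of any of these markers in the changes of H2-Ob and H2-Oa was not tested.

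In Irf1-/- BMDCs c-di-GMP raised Ciita from 6.75 to 13.6 FPKM, a log2 change of 1.004 that lay at the threshold, and lowered H2-DMa, H2-DMb1 and H2-Ob. Here 9.67% of all genes were called higher and 7.81% lower. The fall of H2-DMa, from 149 to 36.5 FPKM, was a log2 change of -2.03. H2-DMb1 fell from 87.2 to 39.9 FPKM and H2-Ob from 1.04 to 0.213, a log2 change of -1.87 that exceeded that of H2-DMa with 0.01 FPKM added and shrank to -0.75, no longer called, with 1 FPKM added. Markers of several cells were called in the same comparison: the dendritic cell genes Cd209a (1.30 to 0.0796 FPKM) and Dpp4 (7.78 to 3.51) and the B cell gene Cd79a (1.42 to 0.389) were lower, and the dendritic cell gene Ccr7 (235 to 1026), the macrophage genes Fcgr1 (5.39 to 35.1) and Mertk (2.01 to 4.85) and the basophil and mast cell gene Fcer1a (2.42 to 5.61) were higher. Their part in these responses was not tested. The rise of Ciita was not called after centring the columns on their median (0.97) or with 1 FPKM added (0.92). H2-Aa, H2-Ab1 and H2-Eb1 moved by log2 0.25 to 0.34, with overlapping intervals, so no chain gene was called where Ciita was.

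In the cells labelled Irf3/7-/-, H2-DMa went from 184 (136 to 231) to 74.8 FPKM (55.7 to 93.6), H2-DMb1 from 119 to 56.4 and H2-DMb2 from 48.2 to 19.6, and all 3 were called lower, where 7.68% of all genes were. H2-Oa was called higher, from 15.8 (11.8 to 19.9) to 32.8 FPKM (24.8 to 40.8), where 10.2% of genes were. Ciita went from 26.1 (17.8 to 34.3) to 18.9 (13.0 to 24.8) FPKM, a log2 change of -0.46 with overlapping intervals, H2-Aa, H2-Ab1 and H2-Eb1 moved by -0.16 to 0.10, and Cd74 went from 4511 to 3336 FPKM, a log2 change of -0.44 with overlapping intervals. Of the cell markers, Ccr7 (171 to 1208 FPKM), Mertk (2.39 to 8.96), Cd68 (73.5 to 172) and Gzma (315 to 900) were called higher here. C1qa (14.3 to 5.32 FPKM), C1qb (63.7 to 31.4) and Klrb1c (4.05 to 0.618) were called lower, and the part of these markers was not tested. In Tmem173-/- cells none of the 10 genes was called in either direction, and 0.0552% of all genes were. There the log2 changes of the 10 genes lay between -0.26 and 0.56, the highest being that of Ciita, from 10.7 (7.86 to 13.5) to 15.8 FPKM (11.7 to 19.9). This count of 0 was the same under each of the 9 alternative settings, since none of the 10 moved by more than 1.5-fold and no interval was apart.

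**Figure D3:**
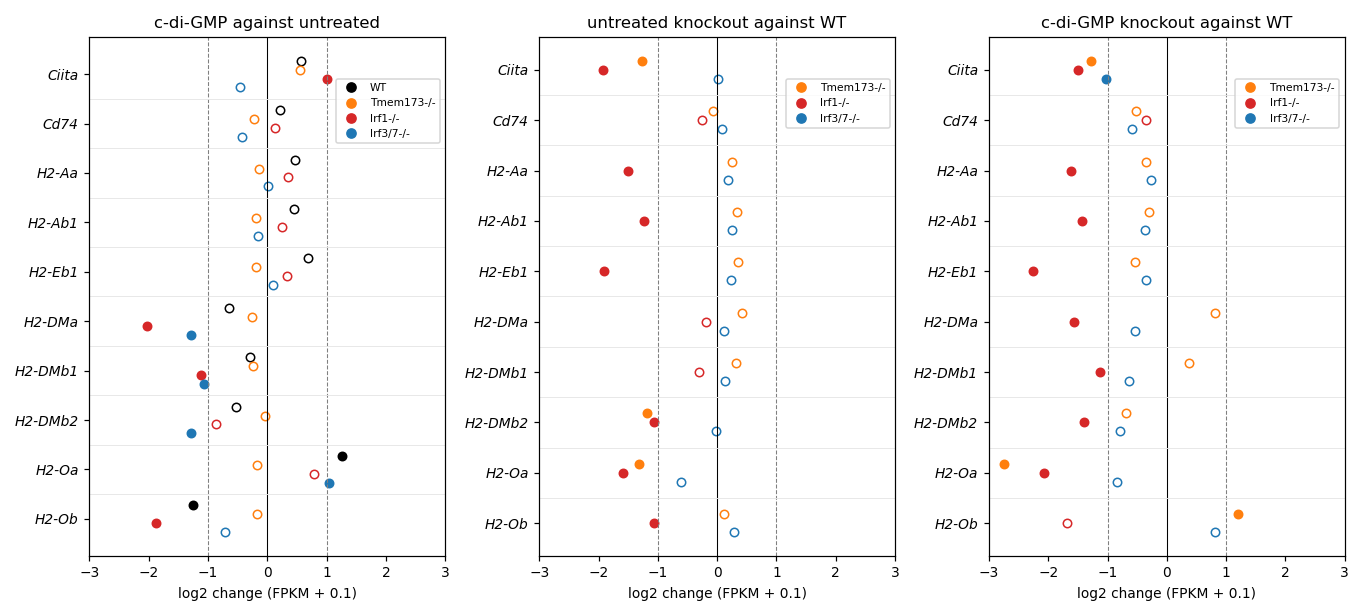
Log2 change (x axis, after adding 0.1 FPKM) of the 10 genes (y axis): c-di-GMP against untreated BMDCs of each genotype (left), untreated knockout against untreated WT (middle) and treated knockout against treated WT (right). Filled circles were called, dashed lines mark 2-fold, and red points of Irf1-/- lie left of the line for 7 genes in the middle panel and 9 in the right, of which H2-Ob was not tested.

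Whether the responses differed from that of WT was read from the difference of the log2 changes, with an interval propagated from the deposited bounds. For H2-DMa the Irf1-/- response was lower than the WT response by 1.37 (interval -2.12 to -0.63), where the WT change was -0.65. For H2-DMb1 it was lower by 0.83 in Irf1-/- (-1.53 to -0.13) and by 0.78 in Irf3/7-/- (-1.48 to -0.08). For Ciita the difference was 0.43 in Irf1-/- (-0.39 to 1.25), which includes 0, and -1.03 in Irf3/7-/- (-1.88 to -0.19), which does not. For H2-Oa it was -1.43 in Tmem173-/- (-2.15 to -0.71), -0.48 in Irf1-/- (-1.20 to 0.24) and -0.22 in Irf3/7-/- (-0.91 to 0.47). For H2-Eb1 and H2-Ob the interval excluded 0 in Tmem173-/- only, at -0.88 (-1.59 to -0.17) and 1.08 (0.23 to 1.93). The responses of Cd74, H2-Aa, H2-Ab1 and H2-DMb2 had intervals that included 0 in all 3 knockouts, which does not show that they responded alike. A difference of more than 2-fold with an interval apart from 0 was found for 2 of the 10 genes in Tmem173-/-, 1 in Irf1-/- and 1 in Irf3/7-/- cells, beside 21.7%, 5.03% and 6.32% of all genes tested, so these counts were not taken as a result about the class II genes. These 30 differences use the same WT values, and their intervals cover the authors' error model and not the spread between cultures.

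RNA of the alpha chains of the inhibitor and the exchanger of peptides was set against each other. H2-Oa per H2-DMa stood at 0.143 (0.101 to 0.202) in untreated and 0.542 (0.383 to 0.766) in treated WT BMDCs. It went from 0.0540 (0.0371 to 0.0788) to 0.381 (0.265 to 0.548) in Irf1-/- and from 0.0863 (0.0600 to 0.124) to 0.439 (0.309 to 0.623) in Irf3/7-/- cells, while Tmem173-/- cells had 0.0431 (0.0291 to 0.0639) and 0.0458 (0.0311 to 0.0674). The intervals of the treated and untreated ratio were apart in the 3 genotypes with Tmem173, and overlapped without it. H2-Oa was called higher in WT, H2-DMa lower in Irf1-/-, and both were called in Irf3/7-/- cells. RNA of H2-Ob, without which the inhibitor cannot form, stayed at 2.81 FPKM or less in every condition, and H2-Oa per H2-Ob went from 10.7 to 64.8 in WT cells. H2-Ob per H2-DMa did not rise in WT cells, at 0.0134 (0.00907 to 0.0199) untreated and 0.00836 (0.00553 to 0.0126) treated, nor in Irf1-/- cells, at 0.00702 and 0.00583, and its treated and untreated intervals overlapped in all 4 genotypes. So the ratio of the alpha chain RNAs is not a measure of inhibitor against exchanger.

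Tmem173-/- BMDCs differed from WT in 3 of the 10 genes before stimulation and in 3 after it. Untreated, Ciita (10.7 against 25.8 FPKM), H2-DMb2 (21.6 against 49.1) and H2-Oa (9.77 against 24.4) were lower, where 5.95% of all genes were. Treated, Ciita (15.8 against 38.5 FPKM) and H2-Oa (8.68 against 58.6) were lower, where 13.5% of genes were, and H2-Ob (2.21 against 0.904 FPKM) was higher, where 12.9% were. The treated counts lay near these shares, so they were not taken as a result about the class II genes. The difference in H2-Oa was -2.74 on the log2 scale. That of H2-Ob was 1.20, fell to 0.76 with 1 FPKM added and was not tested at a minimum of 5 FPKM, so both alternatives ended this call. The chains and Cd74 stayed near WT: H2-Aa stood at 1226 (NT) and 1113 (CDG) FPKM, H2-Ab1 at 824 and 720.2, H2-Eb1 at 580 and 505, and Cd74 at 4060.1 and 3462, and each interval overlapped that of WT in the same state. With Ciita low and H2-Aa at the level of WT, H2-Aa per Ciita was 115 (77.9 to 169) in untreated Tmem173-/- and 39.9 (27.5 to 57.7) in untreated WT cells. The neutrophil markers summed to 19086 FPKM in untreated Tmem173-/- and to 3906 in untreated WT cells. Sums of the macrophage markers (564 against 233 FPKM) and of the B cell markers (10.7 against 4.23 FPKM) were higher too. That of the T and NK cell markers was lower, at 0.436 against 386 FPKM. The part of all these markers was not tested.

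In the cells labelled Irf3/7-/-, none of the 10 genes was called against WT without treatment, where 2.04% of all genes were called in either direction. After c-di-GMP, Ciita alone was lower, where 2.69% of genes were, at 18.9 (13.0 to 24.8) against 38.5 FPKM (27.3 to 49.9). Its log2 difference of -1.02 lay at the threshold and was -0.99, short of it, with 1 FPKM added. H2-Oa, at 32.8 against 58.6 FPKM, had intervals that were apart but was changed by less than 2-fold. All 5 basophil and mast cell markers tested (sums over the list of 251 against 80.8 FPKM) and all 4 T and NK cell markers tested (983 against 353) were called higher in this comparison. So were Cd79a of the B cell (1.35 against 0.123 FPKM), Flt3 of the dendritic cell, Cox6a2 of the plasmacytoid and Mpo of the neutrophil markers. Without treatment the same 5 basophil and mast cell markers (sums of 164 against 67.2 FPKM), Mpo and Klrb1c were also higher than in WT. Mertk was lower there, and the part of all these markers was not tested. Set directly against each other after c-di-GMP, Irf1-/- cells were lower than Irf3/7-/- cells in 6 of the 10 genes, where 6.62% of 11235 genes were: H2-Aa (462 against 1184 FPKM), H2-Ab1 (331 against 689), H2-Eb1 (152 against 569), H2-DMa (36.5 against 74.8), H2-Oa (13.9 against 32.8) and H2-Ob (0.213 against 1.66). Ciita, at 13.6 against 18.9 FPKM, had overlapping intervals, as had Cd74. The basophil and mast cell markers, summing to 88.2 FPKM in treated Irf1-/- and 251 in treated Irf3/7-/- cells, moved with this contrast as did those of T and NK cells. So did 3 of 7 macrophage markers, Emr1, C1qa and C1qb, which were lower in Irf1-/- cells (sums over the list of 175 against 298 FPKM). Fcgr1 of that list was higher, at 35.1 (27.1 to 43.1) against 21.5 FPKM (16.7 to 26.3), a change of less than 2-fold. Cd79a (0.389 against 1.35 FPKM) and the neutrophil gene Camp were lower too, and the part of all these markers was not tested.

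Across the 8 conditions the genes fell into sets that moved together. Pearson's r of log2(FPKM + 0.1) between H2-Aa, H2-Ab1 and H2-Eb1 was 0.993 or above, and between H2-DMa and H2-DMb1 it was 0.98. Ciita had r = 0.71 with H2-Aa, 0.82 with H2-Oa and 0.66 with Cd74, but -0.03 with H2-DMa and 0.08 with H2-DMb1. These values describe 8 points that share genotype, treatment and the libraries, and for the chains the 2 Irf1-/- conditions lie furthest from the rest. Over 3486 other genes with at least 10 FPKM in a condition and a log2 range of at least 1, the 5 most like Ciita were Gbp7 (r = 0.91), Cp, Tnfrsf14, Gm12250 and Bcl2l11, the last at 0.89. Gbp7 ran from 3.96 FPKM in untreated Irf1-/- to 54.6 FPKM in treated WT cells. The 5 most like the mean of the chains and Cd74 were Mgst1 (r = 0.96), Fpr2, Upp1, Cd38 and Mir692-1, at 0.90 or above.

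**Figure D4:**
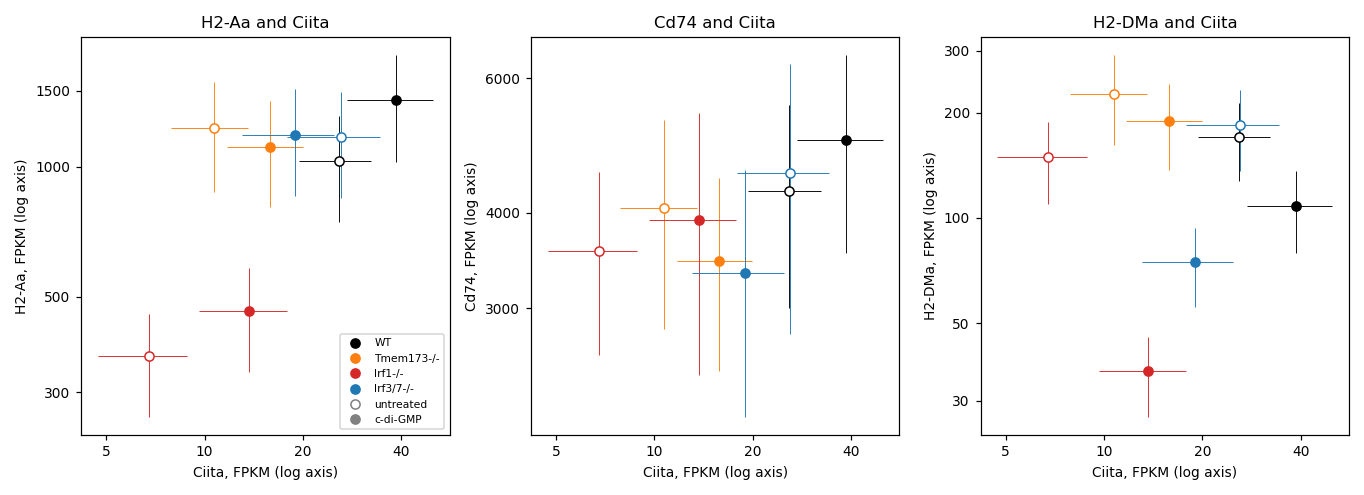
FPKM of H2-Aa (left), Cd74 (middle) and H2-DMa (right) against FPKM of Ciita in the 8 conditions, on log axes, with bars for the deposited intervals in both directions. The 2 Irf1-/- points are far below the rest for H2-Aa, untreated Tmem173-/- cells have WT levels of H2-Aa at 10.7 FPKM of Ciita, and H2-DMa spreads from 36.5 to 226 FPKM without following Ciita.

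The factors that recruit CIITA to the X and Y boxes were seldom called. Of Rfx5, Rfxap, Rfxank, Nfya, Nfyb, Nfyc and Creb1, none was called in 10 of the 11 comparisons, and Rfx5, a subunit of the X-box binding complex, was lower in treated Tmem173-/- than in treated WT cells (5.13 against 11.2 FPKM). In Irf1-/- against WT cells the 7 lay between log2 -0.17 and 0.19 untreated and between -0.41 and 0.16 treated. Among known regulators of Ciita, Irf8 (a dendritic cell and B cell factor) was lower in untreated Irf1-/- than in untreated WT cells, at 17.0 against 55.5 FPKM. After c-di-GMP it was not called, at 201 FPKM in Irf1-/- and 303 in WT. Prdm1, a repressor of Ciita in plasma cells, rose in WT from 3.79 to 8.69 FPKM and in Irf1-/- cells from 2.58 to 6.26. In untreated Tmem173-/- cells Irf1 itself stood at 24.1 FPKM, beside 149 in untreated WT and 25.9 in untreated Irf1-/- cells.

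Other genes of the antigen-processing route were followed as lists. Of 9 endosomal proteases and their partners, 3 rose with c-di-GMP in WT, where 10.5% of all genes were called higher. These were Ctsb (224 to 609 FPKM) and Ctsz (892 to 2021), which are cathepsins, and Cst3 (4409 to 9604), the cathepsin inhibitor cystatin C. Ctss, the cathepsin that trims the invariant chain, went from 801 to 1322 FPKM with a change of less than 2-fold. In Irf1-/- against WT cells, none of the 9 was called untreated and Ctsh alone was lower treated, at 55.3 against 146 FPKM. The costimulatory ligands Cd40, Cd80 and Cd86 rose in WT, Irf1-/- and Irf3/7-/- cells, 3 of 3 called in each. Of all genes, 10.5%, 9.67% and 10.2% were called higher there. Cd40 went from 37.0 to 432 FPKM in WT and from 27.3 to 457 in Irf1-/- cells, and none of the 3 was called between treated Irf1-/- and treated WT cells. Cd83, which protects surface class II from turnover, rose from 143 to 325 FPKM in WT and from 125 to 319 in Irf1-/- cells. March1, the ubiquitin ligase that removes class II from the surface, was level at 8.27 and 8.25 FPKM in WT and stood at 24.2 and 34.8 in Tmem173-/- cells, where it was called higher than in WT in both states. March8, its relative, was called in none of the 11 comparisons.

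The class I route gave a second point of comparison. Of 10 genes (H2-K1, H2-D1, B2m, Tap1, Tap2, Tapbp, Psmb8, Psmb9, Psmb10 and Nlrc5), 6 were lower in untreated Irf1-/- than in untreated WT cells, beside 7 of 10 class II genes, and 2 (Tap2 and Psmb10) after c-di-GMP, beside 8 of 9. Of all genes tested, 3.52% were called lower untreated and 4.91% after c-di-GMP. Within Irf1-/- cells c-di-GMP raised 8 of the 10 class I genes, where 9.67% of all genes were called higher, and within WT cells 6, where 10.5% were. Nlrc5, which acts for class I as CIITA does for class II, went from 9.33 to 54.6 FPKM in Irf1-/- cells and from 30.3 to 71.8 in WT cells, so that treated cells differed by log2 -0.40 with overlapping intervals. H2-K1, a class I heavy chain, stood at 321 against 638 FPKM untreated and at 1384 against 2003 treated. The median log2 difference of the class I list between treated Irf1-/- and WT cells was -0.49, against -1.49 for the class II genes, and these lists were compared by counts and medians without a test.

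**Figure D5:**
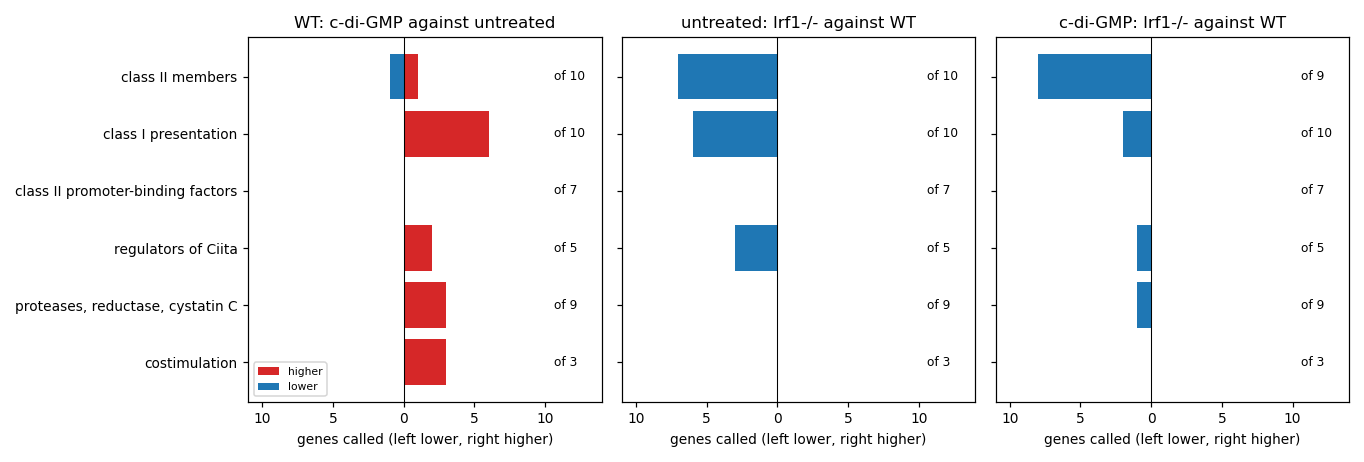
Number of genes called lower (bars to the left) and higher (bars to the right) in each list, with the number tested at the right edge, for c-di-GMP in WT (left), untreated Irf1-/- against WT (middle) and treated Irf1-/- against WT (right). Class II genes are lower in Irf1-/- cells in both states (7 of 10 and 8 of 9), while the class I count goes from 6 to 2 of 10.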

How the data were processed

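The deposited table holds, per the file headers, 1 FPKM, a lower and an upper bound and a status for each gene and condition. The authors made these FPKM values with Cuffdiff (version 1.06 per the labels), which combined the 2 samples of a condition, from stranded 35-base paired-end reads. The aligner, the annotation and the strand setting of Cuffdiff are not given in the sources used here, and an opposing-strand setting is stated for a separate Seqmonk quantification. The submitters' processing notes name mm9, but the loci are those of GRCm38: 21454 of 21681 genes with 1 annotated gene of that name in GENCODE M21 overlap it. The condition names of Tmem173-/- in the header are written with a suffix other than CDG, and were read as NT and CDG. Another 4 columns, of no listed sample, were not used. FPKM values hold no depth. Precision was read from the deposited bounds, which lay at a median of 25.2% to 25.7% of the FPKM on either side over the 4710 genes that reached 10 FPKM in all conditions, and say nothing of the spread between cultures.

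Changes were computed as log2(FPKM + 0.1), which understates changes of low genes. All 23356 genes were compared in 11 pairs of conditions. A gene was tested with at least 1 FPKM in 1 condition and status OK in both, and called above 2-fold with the intervals apart. With a single value per condition no p-value was computed. For differences of responses and ratios, bounds were read as 2 SD and conditions as independent. The calling step was tested on simulated data. Promoter windows are RefSeq's (GRCm38.p6), in which motifs were searched by exact letters on both strands. Named genes are the 10 members, the targeted genes, the genes of fixed pathway and cell marker lists, and the 5 genes most correlated with Ciita and with the chain genes. The members and lists were chosen with earlier results of these data known. Of the listed regulators of Ciita, 1 is not reported here. As 9 alternatives, a pseudocount of 1 or 0.01 FPKM, a fold threshold of 1.5 or 4, no minimum or one at 5 FPKM, centring of columns on their median, the fold change alone and the intervals alone were tried. Python 3.11.15, numpy 2.4.6, pandas 2.3.3 and matplotlib 3.10.9 were used.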

Additional observations from a re-analysis of the deposited data

Results flagged for a closer look

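Responses to c-di-GMP differed by more than 2-fold between a knockout and WT BMDCs, with a propagated interval apart from 0, in 4 of 30 cases (2 of 10 genes in Tmem173-/-, 1 in Irf1-/- and 1 in Irf3/7-/-), where 21.7%, 5.03% and 6.32% of all genes tested passed the same rule. The difference in log2 change was -1.03 for Ciita in Irf3/7-/-, -1.37 for H2-DMa in Irf1-/-, -1.43 for H2-Oa in Tmem173-/- and 1.08 for H2-Ob in Tmem173-/-. They were read from the authors' intervals and not tested over replicates, and the 4 share the WT values. H2-Ob was at 2.81 FPKM or less throughout.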

How the results depend on the processing

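No call changed its direction under any of the 9 alternatives. A threshold of 4-fold moved the count of class II genes called most. It left 0 of 2 for c-di-GMP in WT, 1 of 4 in Irf1-/- and 0 of 4 in Irf3/7-/-, 1 of 3 for treated Tmem173-/-, 2 of 8 for treated Irf1-/- and 0 of 1 for treated Irf3/7-/- against treated WT, 0 of 3 for untreated Tmem173-/- and 0 of 7 for untreated Irf1-/- against untreated WT, and 1 of 6 for treated Irf1-/- against treated Irf3/7-/-. A pseudocount of 1 FPKM left 1 for c-di-GMP in WT, 2 in Irf1-/- and 0 for treated Irf3/7-/- against WT, by ending calls of H2-Ob and the calls of Ciita at the threshold. A minimum of 5 FPKM left 1 for c-di-GMP in WT, since H2-Ob was then not tested. For treated Irf3/7-/- against WT, a threshold of 1.5-fold and the intervals alone each gave 2, Ciita and H2-Oa. The fold change alone, no minimum, a pseudocount of 0.01 FPKM and centring kept all 11 counts within 1.5 times. Centring moved log2 differences by 0.0492 or less. With no minimum, H2-Ob was also called in treated Irf1-/- against WT, at -1.68. The counts of 0 in Tmem173-/- (treated against untreated) and in untreated Irf3/7-/- against WT stayed at 0 under all 9. No paired analysis was possible because the authors combined the 2 samples of a condition into 1 value, and for the same reason no sample could be left out. The spread between cultures is unknown and limits every result, and the low FPKM of H2-Ob makes its calls depend on the pseudocount and the minimum.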
